A study of Mus musculus with 36 samples.

Results

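Homeobox genes encode transcription factors that give cells their position and identity in the embryo, and most are used in only a few tissues. The 55 genes described here lie outside the 4 Hox clusters and were taken as a named list of homeobox genes known for roles in other brain regions, the spinal cord, mesenchyme or inner organs, out of 21938 protein-coding genes. They were grouped by known role into 16 genes of midbrain, hindbrain and spinal interneurons, 9 of motor and autonomic neurons, 8 of ventral forebrain, hypothalamus, eye and ear, 12 of head, limb and skeletal mesenchyme, and 8 of gut, heart, blood and tail. Lbx2 and Nkx1-1 were not placed in a group. The rule for the list uses no measured value, but the list was drawn up with earlier results of these data known. ChIP-seq of H2AK119ub1, H3K27me3 and H3K36me2 was done on hippocampi of P0 mice and on neurospheres, floating cultures of progenitors grown from P0 hippocampi with FGF2 and EGF. Control (Ctrl) samples were labelled Kdm2bfl/+ or Kdm2bfl/fl, so they also carried the floxed allele. Knockout (cKO) samples were labelled Kdm2bEmx1-delta-CxxC, in which Emx1-Cre, active in dorsal forebrain progenitors and their progeny, removed the exon that encodes the CxxC zinc finger of KDM2B. Cells of the hippocampus that do not come from that lineage keep the intact exon. Each mark, source and genotype had 2 libraries, and the labels do not say whether these came from separate animals or cultures.

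Polycomb complexes keep developmental genes silent outside the tissues that use them. PRC1 places H2AK119ub1 and PRC2 places H3K27me3, and both marks often spread over whole gene loci of transcription factors. The CxxC domain of KDM2B binds unmethylated CG-rich DNA and brings a variant PRC1 to CpG islands (CGIs). H3K36me2 hinders PRC2, marks mostly regions without H3K27me3, and is a substrate of the JmjC domain of KDM2B. Homeobox genes outside the Hox clusters are textbook targets of both Polycomb complexes.

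The members were rich in CG pairs. In the 1 kb around the TSS, 39 of 55 members (70.9%) met the criteria for a CpG-rich promoter (GC over 50%, and more than 0.6 of the CG pairs expected from base composition), against 44.4% of all genes. The median was 61 CG pairs per kb in the members and 41 over all genes. In the 300 bases that RefSeq gives around a start (250 before it and 50 from it, GRCm38.p6, the assembly of mm10), 42 members matched with 45 promoters, which held a median of 21 CG pairs against 7 over 32851 promoters. No entry was matched for Gbx1, Pitx1, Vax2, Alx4, Tlx2, Meox1, Nkx6-3, Alx1, Cdx1, Lbx1, Lbx2, Barx2 and En2.

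Some of these promoters are printed 5′ to 3′ on the strand of the gene, with each CG pair in capitals. They are single examples picked with their marks known, and whether the number of CG pairs goes with a mark was not tested. Gbx2 (chr1:89931127-89931426, minus strand) and Pitx3 (chr19:46148276-46148575, minus strand) had less H3K27me3 in both cKO neurosphere libraries than in both Ctrl libraries. Dbx2 (chr15:95654722-95655021, minus strand) and Prrx1 (chr1:163313601-163313900, minus strand) had H3K36me2 within 2 kb of the TSS in every neurosphere library. It covered 46 to 100% of those bases at Dbx2 and 17.8 to 57.3% at Prrx1. For Prrx1 these values do not show whether the printed bases lay in an island. Lhx1 (chr11:84525485-84525784, minus strand) was fully covered by H2AK119ub1 and H3K27me3 in all 16 libraries of these marks.
Gbx2: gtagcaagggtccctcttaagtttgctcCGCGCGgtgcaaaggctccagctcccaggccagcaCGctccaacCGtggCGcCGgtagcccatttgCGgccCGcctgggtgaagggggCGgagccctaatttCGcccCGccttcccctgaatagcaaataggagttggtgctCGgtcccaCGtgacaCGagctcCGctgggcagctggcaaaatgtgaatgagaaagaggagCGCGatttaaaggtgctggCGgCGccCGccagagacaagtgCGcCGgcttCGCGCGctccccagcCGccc
Pitx3: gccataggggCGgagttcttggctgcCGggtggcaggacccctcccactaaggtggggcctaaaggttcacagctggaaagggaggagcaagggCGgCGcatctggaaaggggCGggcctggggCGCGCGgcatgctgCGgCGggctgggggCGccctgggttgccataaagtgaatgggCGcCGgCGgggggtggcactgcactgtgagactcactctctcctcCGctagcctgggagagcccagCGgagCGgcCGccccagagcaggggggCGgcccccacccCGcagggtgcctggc
Lhx1: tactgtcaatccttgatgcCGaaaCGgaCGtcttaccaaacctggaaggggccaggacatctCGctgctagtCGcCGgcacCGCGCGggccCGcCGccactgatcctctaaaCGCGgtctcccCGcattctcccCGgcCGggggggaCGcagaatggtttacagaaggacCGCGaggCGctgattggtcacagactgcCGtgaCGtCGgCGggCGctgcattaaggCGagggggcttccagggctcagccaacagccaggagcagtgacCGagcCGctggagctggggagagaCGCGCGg
Dbx2: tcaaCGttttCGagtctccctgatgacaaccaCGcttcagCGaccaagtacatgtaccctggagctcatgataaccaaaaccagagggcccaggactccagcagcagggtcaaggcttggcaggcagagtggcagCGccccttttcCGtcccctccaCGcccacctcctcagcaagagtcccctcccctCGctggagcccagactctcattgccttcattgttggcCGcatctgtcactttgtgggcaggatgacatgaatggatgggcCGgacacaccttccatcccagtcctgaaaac
Prrx1: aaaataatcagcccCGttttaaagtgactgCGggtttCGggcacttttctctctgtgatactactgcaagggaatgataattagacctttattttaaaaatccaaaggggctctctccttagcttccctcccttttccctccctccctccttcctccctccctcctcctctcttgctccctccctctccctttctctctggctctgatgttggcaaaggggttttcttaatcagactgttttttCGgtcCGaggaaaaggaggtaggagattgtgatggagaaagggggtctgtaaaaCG
The letters CG, which read the same on both strands, occurred 27 times in Gbx2, 20 in Pitx3 and 31 in Lhx1. They occurred 10 times in Dbx2 and 6 in Prrx1. Lhx8, which is not printed, held 4 and had an H3K27me3 promoter coverage of 100% in every library. Of all RefSeq promoters, 15.5% held as many pairs as Gbx2 or more, 26.5% as many as Pitx3, 10.6% as many as Lhx1, 43.5% as many as Dbx2 and 56.4% as many as Prrx1.

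The measure used for each gene was promoter coverage, the share of the 4000 bases from 2 kb before to 2 kb after the TSS that lay in an island, a broad region of read enrichment called in that library alone. Counts per kb are the deposited reads in an island divided by its length. The files used list islands only, and a coverage of 0% means that no enrichment was called there, not that the mark is absent. Counts in islands ranged from 987329 to 6799122 per library in hippocampus H2AK119ub1, 5025115 to 17734396 in neurosphere H2AK119ub1, 1681001 to 5525016 and 13195590 to 17025504 for H3K27me3, and 3109819 to 4504325 and 10587042 to 22021439 for H3K36me2, in the same order of sources. In hippocampus H2AK119ub1 the replicate 1 libraries of both genotypes stood apart from replicate 2, with 45.7 and 37.3 Mb in islands against 157 and 247 Mb. In neurosphere H3K36me2, cKO replicate 1 had the most covered length, 497 Mb against 349 to 432 Mb in the other 3 libraries. The labelled sources could be checked only through the marks, and the progenitor markers gave no clear check. Markers of ventral forebrain neurons (Dlx1, Dlx2, Dlx5 and Gad2) had an H3K27me3 promoter island in every library. Of microglia and endothelium markers, Aif1 and Pecam1 had none in any library and Csf1r had none in hippocampus. Cldn5 had 100% in hippocampus and 0 to 100% in neurospheres. Of 8 markers of dorsal forebrain progenitors, Sox2 and Fabp7 had no H3K27me3 promoter island in any of 8 libraries. The other 6 (Nes, Emx1, Emx2, Lhx2, Pax6 and Hes5) had one in at least 1 library, and Pax6 coverage ranged from 57.5 to 100% in hippocampus and from 0 to 100% in neurospheres. Of the oligodendrocyte markers, Olig2 had 100% in every hippocampus library and 0% in every neurosphere library. Sox10 ranged from 54 to 100% and from 0 to 99%, and Pdgfra had 100% in all. Of the neuron markers, Map2 had 0% throughout. Rbfox3 and Tubb3 had 0% in hippocampus and 0 to 100% in neurospheres. Stmn2 ranged from 0 to 69.0% and from 64.0 to 100%, and Dcx from 0 to 27.8% and from 0 to 100%.

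H3K27me3 covered nearly all members in both sources. In hippocampus, between 52 and 54 of the 55 members had a promoter island in each library, and 46 were fully covered in all 4. In neurospheres the range was 48 to 54, with 39 fully covered in all 4. Over all genes, 12.3 to 25.8% of promoters had an H3K27me3 island in a hippocampus library and 24.2 to 29.3% in a neurosphere library. The mean coverage of the members was 92.0 to 97.5% in hippocampus and 83.8 to 94.4% in neurospheres. The 39 Hox genes were at 100% in every library of both sources. The 16 homeobox genes used in hippocampus and dorsal forebrain, such as Emx2 and Lhx2, were at 16.4 to 60.2% and 28.4 to 44.8%. The members thus lay between the Hox genes and the homeobox genes of the tissue itself, in each of the 8 libraries nearer to the Hox genes.

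**Figure D1:**
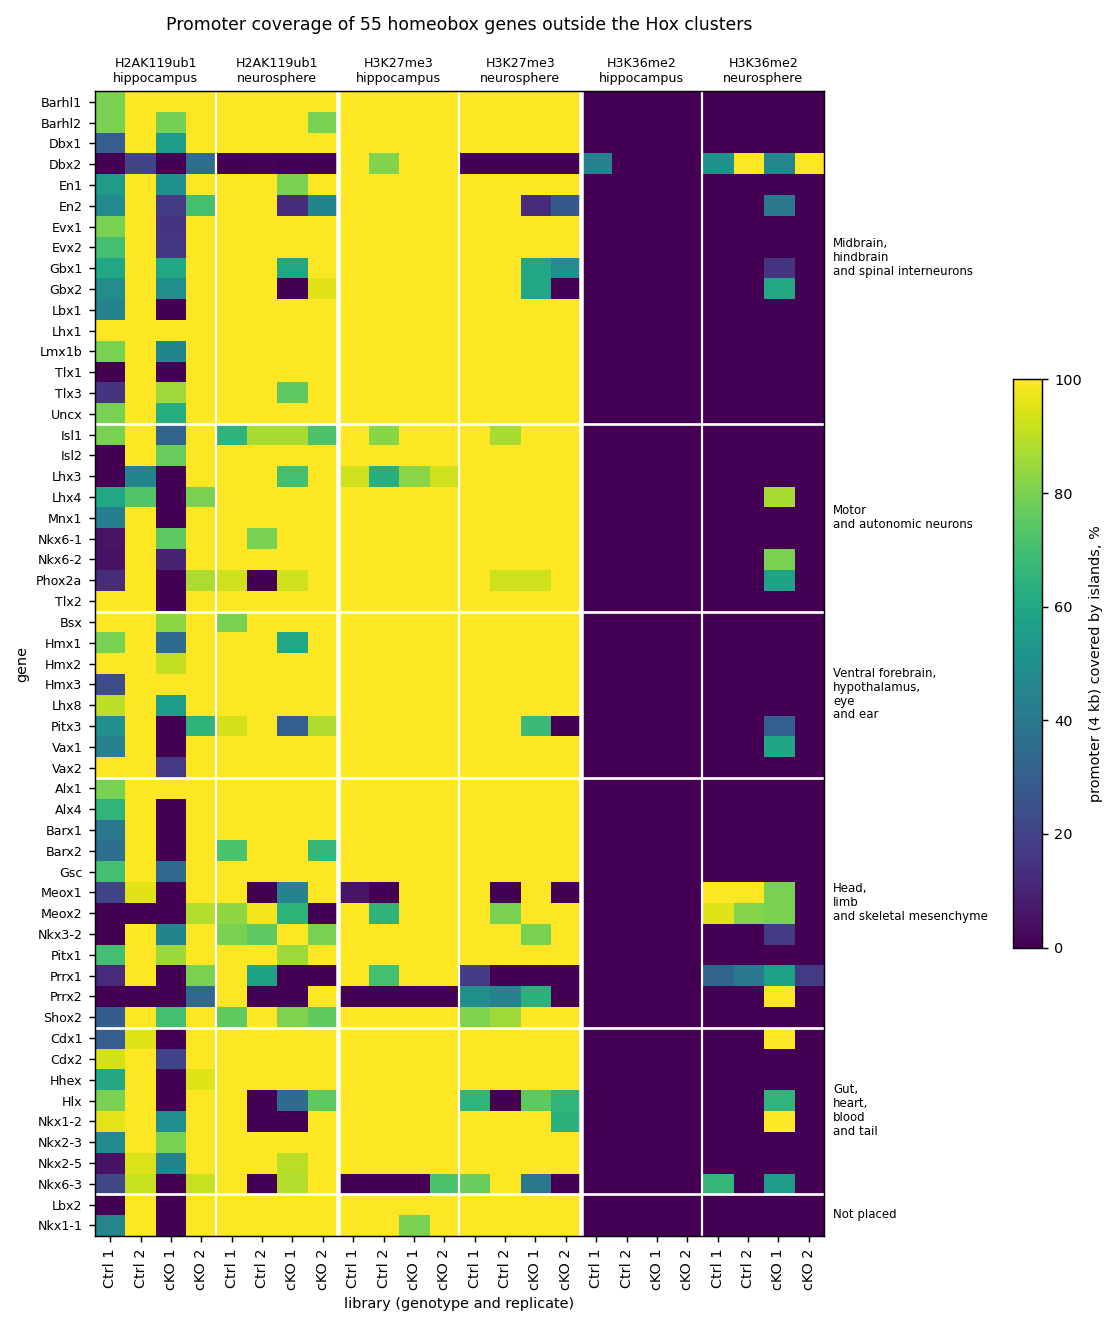
Promoter coverage of the 55 genes in the 24 libraries. Rows are genes in their role groups, columns are libraries by mark, source, genotype and replicate, and the colour gives the percent of the 4 kb promoter inside islands, from 0 (dark) to 100 (yellow). H3K27me3 fills most rows in both sources, the replicate 1 columns of hippocampus H2AK119ub1 are darker than replicate 2, and H3K36me2 is at 0 for most genes.

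The islands over the members were wide. Width and counts per kb are those of the island with the most bases in the promoter, also where a second island reached into it. The median H3K27me3 island at a member promoter was 25.5 to 35.8 kb in hippocampus libraries and 35.6 to 55.8 kb in neurosphere libraries, against 4.6 to 5.6 kb and 6.6 to 11.4 kb at all promoters with an island. They were also denser, with a median of 85.4 to 141 counts per kb in neurospheres against 39.5 to 56.9 at all promoters. The widest in neurosphere Ctrl libraries lay over Hmx1 (178 and 156 kb), a gene of the eye and ear, Lmx1b (159 and 164 kb), needed for serotonergic neurons and the dorsal limb, and Uncx (167 and 143 kb), a sclerotome gene. The narrowest that were called in both Ctrl libraries lay over Meox2 (5.2 and 3.2 kb), Nkx6-3 (7.2 and 8 kb) and Alx1 (9.8 and 7 kb). A few members shared an island with a neighbour. Hmx2 and Hmx3, adjacent genes of the inner ear and hypothalamus, lay in 1 H3K27me3 island in all 8 libraries and are therefore not independent. Evx2 lies at the end of the Hoxd cluster, and its H3K27me3 island also held 8 or 9 Hox TSSs in every library.

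**Figure D2:**
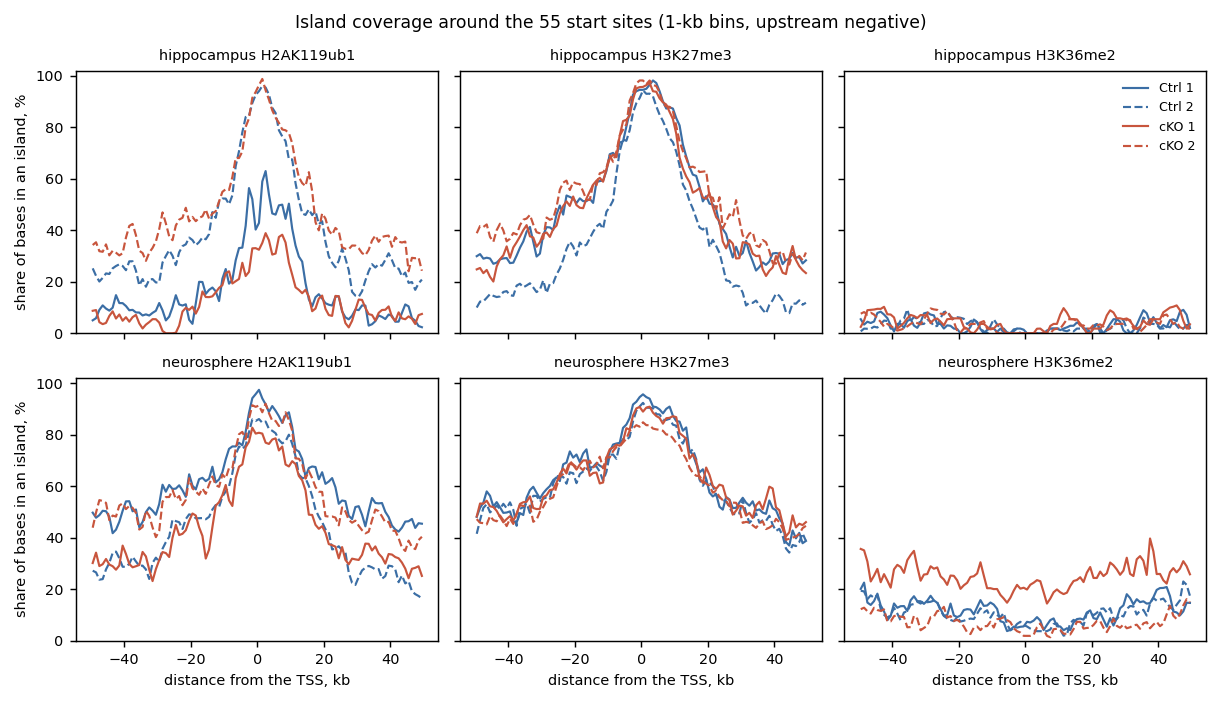
Share of bases in an island, in percent, in 1-kb bins from 50 kb before to 50 kb after the 55 TSSs, with Ctrl in blue and cKO in red and replicate 2 dashed. H2AK119ub1 and H3K27me3 are highest at the TSS and lower with distance on both sides, the replicate 1 curves of hippocampus H2AK119ub1 lie low in both genotypes, and H3K36me2 dips at the TSS in neurospheres.

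H2AK119ub1 lay over the same promoters. In neurospheres, 49 to 54 members had an H2AK119ub1 promoter island and 29 were fully covered in all 4 libraries, and the mean coverage was 81.0 to 95.3% against 9.12 to 28.4% over all promoters. In hippocampus, 47, 53, 32 and 55 members were called in Ctrl replicates 1 and 2 and cKO replicates 1 and 2, an order in which all values per library are given from here on. Only Lhx1, a gene of spinal interneurons and of the kidney, was fully covered in all 4. Coverage in hippocampus followed the replicate number, with means of 48.5 and 33.4% in replicate 1 and 93.0 and 95.1% in replicate 2. The counts in islands moved with it, 1015578 and 987329 against 4215938 and 6799122, and their part in the coverage was not tested. Where H2AK119ub1 was called on a member promoter, H3K27me3 was nearly always called too. Of the H2AK119ub1-covered bases of the members, 87.2 to 100% were also in an H3K27me3 island of the same source, genotype and replicate number, against 34.9 to 75.1% for all 9734 CpG-rich promoters. Libraries of the 2 marks share a replicate number only, and no test was made.

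H3K36me2 was rare at the members. In hippocampus the only promoter island was at Dbx2, a gene of ventral spinal progenitors, at 44% in Ctrl replicate 1. In neurospheres 5, 4, 18 and 2 members had an island, while 11.3 to 42.2% of all promoters did. In the library with 18, cKO replicate 1, 13 members were called that no other neurosphere library called, namely Cdx1, En2, Gbx1, Gbx2, Hlx, Lhx4, Nkx1-2, Nkx3-2, Nkx6-2, Phox2a, Pitx3, Prrx2 and Vax1. That library also had the largest covered length, and 42.2% of all promoters had an island in it. The other 5 were called in at least 2 libraries. Dbx2 had 51, 100, 46 and 100%, and Prrx1, a gene of limb bud mesenchyme, had 32.8, 40, 57.3 and 17.8%. Both were called in all 4 libraries, and both nearly lacked H3K27me3 in neurospheres, with 0% in all 4 for Dbx2 and 17.8, 0, 0 and 0% for Prrx1. In hippocampus both were H3K27me3 promoters, with 100, 81, 100 and 100% for Dbx2 and 100, 70, 100 and 100% for Prrx1. How many of all promoters differ between the sources in this way was not counted. In the test of the sources below, neither gene could be fitted for H3K27me3. The region of merged islands at its promoter did not hold an island in every Ctrl library.

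The somite genes Meox1 and Meox2 carried H3K36me2 in 3 of 4 neurosphere libraries. Meox1 had 100, 100, 80 and 0%, and Meox2 had 95, 81.5, 80 and 0%. Nkx6-3, a gene of the stomach, had 66.7, 0, 55 and 0%. These 2 somite genes were the members whose neurosphere H3K36me2 promoter coverage lay lower in both cKO libraries than in both Ctrl libraries, 2 of 18 members that varied, while 5.62% of the 10757 varying promoters did so. No member lay higher in both, against a background of 4.24%. Without cKO replicate 2 the count of members higher was 14, because cKO replicate 1 alone then stood for the cKO group. Meox1 also had unsteady Polycomb marks in neurospheres, with H3K27me3 coverage of 100, 0, 100 and 0% and H2AK119ub1 coverage of 100, 0, 44.4 and 100%. In hippocampus H3K36me2 no member lay lower or higher in both cKO libraries, where 4.18% of varying promoters lay lower and 7.56% higher. Without Ctrl replicate 2 the count lower was 1.

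The comparison of cKO with Ctrl asked whether loss of the CxxC zinc finger changed the marks at these promoters. In bulk samples, fewer cells with a mark and less of the mark per cell cannot be told apart, and p-values measure only the spread between these libraries, which may be technical. In hippocampus H3K27me3, most members were fully covered in every library and could not rise. No member lay lower in both cKO libraries, against 2.8% of 6208 varying promoters, and 1 of 8 varying members lay higher, against 12.8%. That gene was Meox1, with 5.65, 0, 100 and 100%. Its Ctrl and cKO values were far apart, but 2 libraries against 2 allow no exact permutation p below 0.333. The island was 7.2 kb wide in Ctrl replicate 1 and 10.6 and 11.8 kb in the cKO libraries. The count of members higher was 6 without Ctrl replicate 1 and 2 without cKO replicate 1. Of the 47 members fully covered in both Ctrl libraries, 0 lay lower in both cKO libraries, against 4.02% of all such promoters. Prrx2, a craniofacial and limb gene, had 0% in all 4 hippocampus libraries at its GENCODE start. At its RefSeq start, 10.4 kb away, it had 100, 100, 40.9 and 100%, so its call depended on the start used. Nkx6-3 had 0, 0, 0 and 71.7%.

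In hippocampus H2AK119ub1, 54 of 55 members varied and none separated the genotypes in either direction, with backgrounds of 1.7% lower and 2.03% higher. Most members had no room to separate. The 46 members fully covered in Ctrl replicate 2 could not lie higher in both cKO libraries. The 45 fully covered in cKO replicate 2 could not lie lower in both. Of the 5 members fully covered in both Ctrl libraries, 0 lay lower in both cKO libraries, against 5.88% of all such promoters. At En1, a gene of the midbrain and hindbrain, the values of 55, 100, 50 and 100% split by replicate number. Isl1, of motor neurons, had 80, 100, 32.2 and 100%. Cdx2, of the intestine and the tail, had 93.3, 100, 20 and 100%. In both of these cKO replicate 1 alone stood apart. Without both replicate 1 libraries, a comparison chosen after seeing the data, 5 members lay lower and 8 higher in the remaining cKO library. The count lower was 33 without cKO replicate 2 and 5 without Ctrl replicate 1, and the count higher was 13 without Ctrl replicate 2 and 8 without cKO replicate 1.

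In neurosphere H3K27me3, 15 members varied. Promoter coverage was lower in both cKO libraries at En2, Gbx1, Gbx2, Nkx6-3 and Pitx3, 5 of 15, where the background was 15.2% of 7718 varying promoters, and higher at Shox2, 1 of 15, with a background of 9.76%. Members at 100% cannot lie higher, so promoters fully covered in both Ctrl libraries were also compared on their own. There 4 of 45 members lay lower in both cKO libraries, against 17.1% of 1847 such promoters. Of the 6 genes named here, Nkx6-3 and Shox2 were not fully covered in Ctrl. The count higher was 4 without Ctrl replicate 1 and 3 without cKO replicate 2.

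En2 (chromosome 5, 28165694 to 28172166, plus strand), which patterns the midbrain and cerebellum, had the largest difference. Its H3K27me3 promoter coverage was 100, 100, 12.7 and 27.7%. The promoter island was 117, 96.6, 3.8 and 12.6 kb with 145, 126, 55.3 and 32.7 counts per kb, so both cKO libraries were far below both Ctrl libraries in each measure. Its paralogue En1 (chromosome 1, 120602418 to 120607992, plus strand) did not share the difference in coverage or width, with 100% in all 4 libraries and islands of 47, 47, 55 and 60 kb. Its counts per kb, which are not normalised, were 198, 155, 112 and 122, also lower in both cKO libraries. Relative to the median promoter island of each library, they were 3.48, 3.30, 2.84 and 3.06 at En1. The same relative values at En2 were 2.55, 2.68, 1.40 and 0.82. H2AK119ub1 at En2 had 100, 100, 12.7 and 45%, and its gene body coverage was 100, 100, 0 and 49.4%. In hippocampus the H3K27me3 coverage of En2 was 100% in all 4 libraries. The difference in H3K27me3 coverage was thus seen in the cultures and not in the tissue. The hippocampus H2AK119ub1 coverage of En2 was 47.7, 100, 17.3 and 70%, where the genotypes overlapped. Whether the sources differ is tested further on.

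Gbx2 (chromosome 1, 89927956 to 89931179, minus strand) sets the boundary of midbrain and hindbrain, and Gbx1 (chromosome 5, 24502757 to 24527202, minus strand) is its paralogue in the spinal cord. H3K27me3 at Gbx2 was 100, 100, 60 and 0%, with islands of 27.2, 24.8 and 3.2 kb and no island in cKO replicate 2. In cKO replicate 1 a second, longer island, from 1.779 to 16.178 kb downstream of the Gbx2 TSS, also reached into the promoter. At Gbx1 it was 100, 100, 59.95 and 49.95%, with islands of 49.2, 53.8, 1.4 and 6.8 kb. In cKO replicate 1 a second island, from 1.002 to 6.001 kb downstream of the Gbx1 TSS, also lay in the promoter. At both paralogues 1 island of over 20 kb thus spanned the promoter in each Ctrl library and none did in either cKO library. H2AK119ub1 at Gbx2 was 100, 100, 0 and 95.5%, lower in both cKO libraries although only just in replicate 2. At Gbx1 it was 100, 100, 60 and 100%, where the genotypes touch. In hippocampus both genes had 100% H3K27me3 in all 4 libraries.

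**Figure D3:**
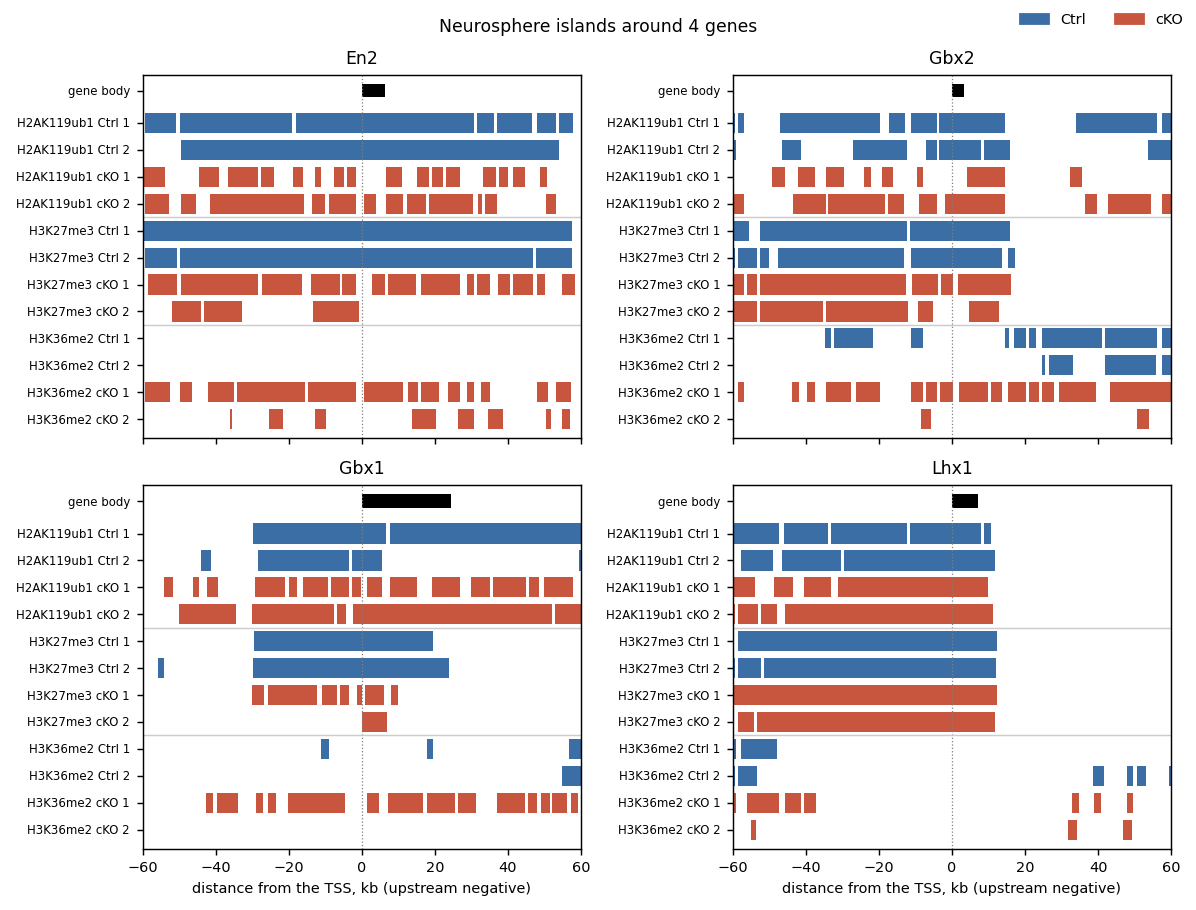
Neurosphere islands around En2, Gbx2, Gbx1 and Lhx1 by distance from the TSS in kb (upstream negative), with 1 line per library, Ctrl in blue, cKO in red and the gene body in black. At En2 the H3K27me3 block around the TSS was 117 and 96.6 kb in Ctrl and is broken into shorter pieces in both cKO libraries, while at Lhx1 the island reaches across the TSS in all 4.

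Pitx3 (chromosome 19, 46135685 to 46148326, minus strand), of midbrain dopamine neurons and the lens, had 100, 100, 68.2 and 0% H3K27me3 and 93.2, 100, 30 and 88.2% H2AK119ub1 in neurospheres. Nkx6-3 had 76.7, 100, 40 and 0% H3K27me3. Its H2AK119ub1 coverage was 100, 0, 88.3 and 100%, which did not separate the genotypes. Shox2 (chromosome 3, 66971727 to 66981771, minus strand), a limb and sinoatrial gene, went the other way, with 80.7, 85.7, 100 and 100% H3K27me3 and islands of 13.4, 6.4, 26.4 and 55.8 kb. Its promoter region as a whole showed no such difference, with 346, 353, 297 and 472 CPM (counts per library scaled after TMM normalisation). With 2 libraries a group, none of these single-gene separations can pass an exact permutation test, since the smallest p is 0.333.

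Some members were only partly covered by H3K27me3 in neurospheres without separating the genotypes. Hlx, of the gut and blood, had 65.5, 0, 75 and 65.5%. Prrx2 had 49.3, 44.3, 64.3 and 0% at the GENCODE start and 100, 100, 80 and 0% at the RefSeq start, where both cKO libraries lay below both Ctrl libraries. In neurosphere H2AK119ub1, the members lower in both cKO libraries were En2, Gbx2, Meox2, Pitx3 and Prrx1, 5 of 26 that varied, with a background of 7.96%, and none was higher, with a background of 4.52%. Prrx1 had 100, 57.8, 0 and 0%, and Meox2 had 83.5, 98.5, 65 and 0%. Among the 39 members fully covered in both Ctrl libraries, 2 lay lower in both cKO libraries, against 17.8%. Without cKO replicate 2 the count lower was 12. The count higher was 6 without Ctrl replicate 1, 2 without Ctrl replicate 2, and 1 without either cKO library in turn.

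The width of the islands did not move one way. In neurosphere H3K27me3 it was smaller in both cKO libraries for 8 of 47 members, with a background of 18.1%, and larger for 13, with a background of 28.3%. The 8 were Cdx1, En2, Gbx1, Gsc, Lhx3, Nkx1-2, Nkx6-2 and Pitx1. Among the 13 were Nkx2-5, the heart gene (56.2, 56.2, 82.4 and 85 kb), and Evx1 and Evx2, of spinal commissural neurons. Evx1 lies next to the Hoxa cluster, and its island was 80.8 and 79 kb with 1 Hox TSS inside in Ctrl, but 218 and 285 kb with 11 Hox TSSs inside in cKO. For Evx2 the widths were 88.4, 88.4, 188 and 246 kb. At Evx1 the island of the member and that of most of the Hox cluster were thus called as 1 in the cKO libraries, while the Evx2 island held 8 Hox TSSs in both Ctrl and 9 in both cKO libraries. In hippocampus the Evx1 island was already 198, 183 and 191 kb with 11 Hox TSSs in 3 libraries and 20.6 kb in Ctrl replicate 2. The counts per kb of the neurosphere H3K27me3 island, relative to the median promoter island of the library, were lower in both cKO libraries for 19 of 47 members (background 27%) and higher for 4 (background 20.3%). For neurosphere H2AK119ub1 they were lower for 26 of 45 members (background 30.8%) and higher for none (background 8.75%), with Alx1, Barhl2, Cdx2, Lhx1, Mnx1 and Vax2 among the 26.

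Among the other comparisons of width and density, those of hippocampus H2AK119ub1 and of density in hippocampus H3K27me3 gave few separations. In neurosphere H2AK119ub1 the width was smaller in both cKO libraries for 11 of 45 members, with a background of 24.7%, and larger for 2, with a background of 3.6%. Uncx, for example, had 122, 56, 23.4 and 46.2 kb, and the vascular and liver gene Hhex, 1 of the 2 that were wider, had 7.2, 9, 11.4 and 15.6 kb. In hippocampus H3K27me3, 2 of 52 members were narrower (background 4.75%) and 9 wider (background 26.8%), with Lbx1, of spinal interneurons and migrating muscle precursors, at 32.6, 29, 26.6 and 26.6 kb among the narrower. The 9 included En2, Lhx3, Nkx1-2 and Pitx3. Of these, En2, Lhx3 and Nkx1-2 were also among the 8 that were narrower in neurospheres. The hippocampus island at En2 was 39.4, 35, 42.8 and 47.8 kb wide. In hippocampus H2AK119ub1 none of 30 was narrower or wider, with backgrounds of 2.59% and 0.575%. The relative counts per kb in hippocampus were lower for 1 of 30 members (Barhl1, background 5.17%) and higher for 2 (Lhx8 and Nkx6-2, background 8.91%) in H2AK119ub1. In H3K27me3 they were lower for 0 of 52 (background 2.24%) and higher for 3 (Alx1, Cdx1 and Lhx8, background 20.7%).

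Coverage of the gene body, from the start to the end of the gene, gave a further view of the same islands. In neurosphere H3K27me3 it was lower in both cKO libraries for En2, Gbx1, Gbx2, Nkx1-2, Nkx6-3 and Pitx3, 6 of 20 members that varied (background 14.3%). These are the 5 genes with lower promoter coverage and Nkx1-2, whose body had 97.4, 100, 72.2 and 72.2%. It was higher for Barx2, Evx2 and Hlx (background 16.1%). Barx2, whose body is 67.4 kb long, had 35.1, 28.6, 71.8 and 73.3%, so the cKO libraries lay well above the Ctrl libraries. The H2AK119ub1 coverage of its body was also higher in both cKO libraries, at 11.9, 22.04, 34.4 and 47.2%, and its H3K36me2 coverage was lower in both, at 37.9, 47.1, 24.6 and 12.5%. In gene body coverage the 3 marks thus separated the genotypes at Barx2 in neurospheres, both Polycomb marks upwards and H3K36me2 downwards. Other measures of H2AK119ub1 at Barx2 did not rise. Its promoter coverage was 71.6, 100, 100 and 66.6%, which did not separate the genotypes. The counts per kb of its promoter island, relative to the median promoter island, were lower in both cKO libraries, at 1.39, 1.18, 1.02 and 1.10.

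In neurosphere H2AK119ub1, gene body coverage was lower for 4 of 35 members (En2, Lhx8, Meox2 and Vax2, background 7.16%) and higher for Barx2 and Hhex (background 8.15%). In neurosphere H3K36me2 it was lower for Barx2 and Meox1 and higher for Dbx2 and Nkx1-2, of 23 members that varied (backgrounds 6.52% and 6.96%). Dbx2 had 48.0, 36.3, 63.0 and 76.5%, without an H3K27me3 island in its body in any of the 4. In hippocampus H3K27me3 none of 23 was lower (background 2.75%) and 6 were higher (background 19.6%), namely Alx4, Barx2, Dbx2, Lmx1b, Meox1 and Prrx1. Barx2 was among them with 25.9, 13.4, 31.8 and 36.2%, the same direction as in neurospheres. In hippocampus H2AK119ub1 none of 55 separated the genotypes (backgrounds 1.57% and 4.64%). In hippocampus H3K36me2 none of 9 was lower (background 7.09%) and 2 were higher (background 17.4%). These were Dbx2, with 0, 0, 15.4 and 7.53%, and Prrx2, with 7.02, 0, 36.3 and 7.78%.

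Counts were then tested over promoter regions, the merged islands of a mark and source, where a region was called in all 4 libraries. The count of a region sums the reads of all its islands, so its fold change mixes called length and density. Some of these islands lie outside the promoter, so a library can have counts in a region and a promoter coverage of 0%. In neurosphere H3K27me3, 47 member regions with 48 members were among 11262 tested. None passed an adjusted p of 0.05 in the quasi-likelihood test of edgeR, nor did any region at all (background 0%). The log2 fold change of cKO against Ctrl lay below 0 in 44 of 47 member regions, with a median of -0.43 against 0.01 over all regions, of which 49% lay below 0. At an unadjusted p under 0.05, 27 member regions were lower and 1 higher, where the background was 8.94% lower and 9.5% higher. DESeq2 called 4 member regions (En2, Gbx2, Gbx1 and Nkx1-2), against 6.52% of all regions, and limma on counts per kb called 0 with a median of -0.16 and 43 regions below 0. Without cKO replicate 1, edgeR called 23 of 47 member regions, against 17.8% of all regions, and the median was -0.73.

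The values were also set beside those of other wide regions. Of the 47 member regions, 45 were at least 20 kb wide. Over the 3788 other regions of that width, the median log2 fold change was -0.19, 62.4% lay below 0, and 16.2% were lower at an unadjusted p under 0.05. On counts per kb their median was -0.01, against -0.16 in the member regions. In neurosphere H2AK119ub1 the other wide regions had a median log2 fold change of 0.08, against -0.23 in the member regions. In neurosphere H3K27me3 the 4 Hox regions had a median of -0.17 and the 7 regions of forebrain homeobox genes had -0.64. In neurosphere H2AK119ub1, 5 Hox regions had a median of -0.26 and 8 regions of forebrain homeobox genes had -0.11. The part of width in the shift of the members was not tested.

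**Figure D4:**
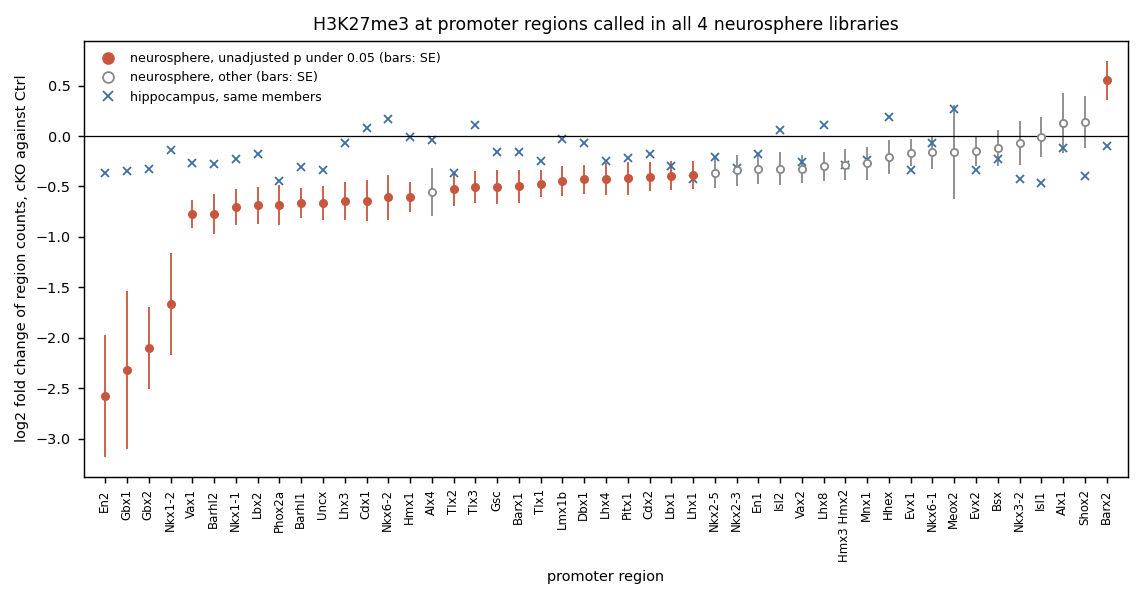
Log2 fold change (cKO against Ctrl) of H3K27me3 counts in the promoter regions called in all 4 neurosphere libraries, sorted, with bars of 1 SE. Filled red points had an unadjusted edgeR p under 0.05, none passed the adjusted threshold, and crosses give the hippocampus value of the same gene. En2, Gbx1, Gbx2 and Nkx1-2 lie apart from the rest at the low end, with values from -2.57 to -1.66.

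En2, Gbx1 and Gbx2 again led, with Nkx1-2. The En2 region (118 kb) had 1409, 1538, 386 and 109 CPM, a log2 fold change of -2.57 (SE 0.60, edgeR adjusted p = 0.19). The Gbx1 region had 348, 382, 124 and 22.2, a change of -2.32 (SE 0.79, edgeR adjusted p = 0.24). The Gbx2 region had 323, 348, 107 and 48.9, a change of -2.10 (SE 0.41, edgeR adjusted p = 0.18). In each, both cKO values lay below both Ctrl values, and the cKO libraries also lay apart from each other, most at Gbx1. Nkx1-2, expressed in tail bud progenitors, had 59.5, 68.6, 29.01 and 11.4 CPM, a change of -1.66 (SE 0.51, edgeR adjusted p = 0.22).

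The other named members showed smaller and more even differences. Vax1, which patterns the optic stalk, had 1085, 1146, 651 and 656 CPM and a log2 fold change of -0.77 (SE 0.14), with the smallest p of all members (edgeR adjusted p = 0.18). Barhl1, of cerebellar granule cells, had 1825, 2041, 1295 and 1142, a change of -0.67 (SE 0.15). Its paralogue Barhl2 had a change of -0.77 (SE 0.20). Hmx1, Nkx1-1 and Uncx had changes of -0.60, -0.70 and -0.66, each with both cKO libraries below both Ctrl libraries. Isl1 (321, 317, 275 and 357) and Nkx2-5 (979, 1083, 770 and 834) had changes of -0.01 (SE 0.20) and -0.36 (SE 0.15), and Cdx2 had -0.40 (SE 0.15). Barx2, a mesenchymal and muscle gene, was the member above 0 with the smallest p, with 232, 239, 305 and 385 CPM and a change of 0.55 (SE 0.19, edgeR adjusted p = 0.25). The 7 members not in a tested region were Dbx2, Hlx, Meox1, Nkx6-3, Pitx3, Prrx1 and Prrx2.

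In the other comparisons of cKO with Ctrl that held member regions, no member passed an adjusted p of 0.05. In neurosphere H2AK119ub1, 48 member regions had a median of -0.23 against 0.01 over 6060 regions, and 39 lay below 0 (48 of 48 by limma on counts per kb), against 48.9% of all regions. Only En2 had an unadjusted p under 0.05, with 918, 1381, 547 and 528 CPM and a change of -1.10 (SE 0.39, edgeR adjusted p = 1.00), where 0.891% of all regions were lower and 0.776% higher at that level. DESeq2 and limma called 0 member regions. Without Ctrl replicate 1 edgeR called 10 of 48, against 12% of all regions, and the median was -0.45, and without Ctrl replicate 2 the median was close to 0. In hippocampus H2AK119ub1, 42 member regions had a median of -0.09 against 0.02, and 0 were under an unadjusted p of 0.05 in either direction (backgrounds 0.509% lower and 0.582% higher). DESeq2 and limma called 0, and 29 of 42 lay below 0 by edgeR against 20 by limma on counts per kb. Of all regions, 48.6% lay below 0 by edgeR.

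In hippocampus H3K27me3, 51 member regions had a median of -0.22 against -0.02 over 4387 regions. None had an unadjusted p under 0.05 in edgeR (backgrounds 1.41% lower and 2.12% higher), and DESeq2 and limma called 0. The direction was not stable, since 43 regions lay below 0 by edgeR but 19 by limma on counts per kb (51.8% of all regions by edgeR), and the median was 0.12 without Ctrl replicate 2. At En2 the CPM were 1011, 1556, 842 and 1143, a change of -0.37 (SE 0.31), and at Gbx2 they were 1601, 2568, 1510 and 1817, a change of -0.33 (SE 0.30). The genotypes overlapped at both. The difference of the cKO effect between the sources was tested as an interaction over 8 libraries. For H3K27me3, 0 of 49 member regions passed an adjusted p of 0.05 in edgeR. At an unadjusted p under 0.05, En2 had an interaction of -1.88 (SE 0.66, edgeR adjusted p = 0.38), Nkx6-2, of ventral spinal progenitors, -0.90 (SE 0.34, edgeR adjusted p = 0.40), and Hlx 1.60 (SE 0.41, edgeR adjusted p = 0.31). The backgrounds at that level were 5.52% lower and 5.35% higher. For H2AK119ub1, 0 of 43 were called and 0 had an unadjusted p under 0.05 (backgrounds 0.772% lower and 0.643% higher). The larger effect at En2 in neurospheres was thus not shown to differ from that in hippocampus after adjustment.

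For H3K36me2 in neurospheres, 3 member regions could be tested, and edgeR, DESeq2 and limma called 0 of them, with 0 at an unadjusted p under 0.05 (backgrounds 1.46% higher and 0.676% lower). Dbx2 had 22.7, 25.1, 32.3 and 52.4 CPM (log2 fold change 0.83, SE 0.38) and Prrx1 12.3, 8.795, 11.99 and 22.2 (0.70, SE 0.49). Meox1 had 225, 174, 192 and 18.9 (-0.92, SE 1.05), where cKO replicate 2 alone was low. Without cKO replicate 1, edgeR called 1 of the 3, against 5.83% of all regions. In hippocampus no member region was called in all 4 libraries.

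The sources were compared in the Ctrl libraries alone. Of 51 member regions tested for H3K27me3, 7 were higher and 3 lower in neurospheres at an adjusted p of 0.05 in edgeR, with backgrounds of 17.9% and 16.7%. Hlx fell most, with 929 and 1371 CPM in hippocampus against 128 and 94.8 in neurospheres, a log2 fold change of -3.37 (SE 0.32, edgeR adjusted p = 0.0027). Its hippocampus promoter coverage was 100% in all 4 libraries and the island was 28.6 to 43 kb wide, against at most 5.6 kb in neurospheres. Nkx1-2 (-1.54, SE 0.24) and Pitx3 (-1.54, SE 0.28) also fell. Cdx1, of the intestine and posterior embryo, rose from 257 and 419 to 1295 and 1245 CPM, a change of 1.91 (SE 0.30, edgeR adjusted p = 0.0089). The others that rose were Alx4 (1.39), Hmx1 (1.30), Lhx3 (1.21), Nkx6-2 (0.97), Lhx8 (0.79) and Gsc (0.75).

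The count of 10 depended on the libraries used. It was 36 of 51 without hippocampus Ctrl replicate 1 (54.4% of all regions) and 32 of 51 without hippocampus Ctrl replicate 2 (37.4%). It was 4 of 51 and 5 of 53 without neurosphere Ctrl replicates 1 and 2 (23.1% and 22.5%). DESeq2 called 14 of 51, against 41.5% of all regions. On counts per kb limma called 26, against 18.6%, with 5 regions below 0 against 24 by edgeR. For H2AK119ub1, edgeR and limma called 0 of 48 member regions and DESeq2 called 7, against 19.6% of all regions. At an unadjusted p under 0.05, 3 were higher and 1 lower (backgrounds 9.27% and 7.98%). Hlx was the 1 that was lower, at 1199 and 777 CPM in hippocampus and 336 and 25.3 in neurospheres (edgeR adjusted p = 0.27). For H3K36me2 the only member region called in all 4 Ctrl libraries was Meox1, with 72.0 and 192 CPM in hippocampus and 541 and 412 in neurospheres. The hippocampus counts came from islands of the region outside the promoter, whose coverage was 0% there. Coverage of the gene body was 21.3 and 7.12% in hippocampus Ctrl. Its change of 1.86 (SE 0.53, edgeR adjusted p = 0.054) missed the threshold (backgrounds 7.45% higher and 8.03% lower) in edgeR and in limma and passed it in DESeq2, which called 38.8% of all regions.

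Across the role groups, the genes of midbrain, hindbrain and spinal interneurons had a mean neurosphere H3K27me3 coverage of 93.8 and 93.8% in Ctrl and 83.3 and 79.9% in cKO. Of the members named above as lower in both cKO libraries, En2, Gbx1 and Gbx2 belong to this group. The genes of motor and autonomic neurons had 100 and 97.8% in Ctrl and 99.2 and 100% in cKO. Those of ventral forebrain, hypothalamus, eye and ear had 100 and 100% against 96.0 and 87.5%, a difference that came from Pitx3 alone, the other 7 being at 100% throughout. The mesenchymal genes had 87.3 and 75.8% against 87.02 and 75%, and those of gut, heart, blood and tail had 92.8 and 87.5% against 89.4 and 78.7%. Lbx2 and Nkx1-1 had 100% in all 4 neurosphere libraries. In hippocampus the group means lay between 77.9 and 100% in every library. The members that were with full H3K27me3 coverage in each of the 8 libraries included Barhl1, Dbx1, Lhx1, Mnx1, Lmx1b, Nkx2-5, Pitx1, Cdx2 and Hhex, genes of every role group but the ventral forebrain one, where Bsx, Lhx8, Vax1 and Vax2 and the 3 Hmx genes were the same.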

How the data were processed

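ChIP-seq islands of 3 histone marks were analysed in 24 libraries, with groups and replicate numbers taken from the titles. The 12 input samples were not used here. The authors trimmed reads with cutadapt, aligned them to mm10 with Bowtie2 2.4.5, removed duplicates and called islands per library with SICER against input (version not given in the sources used here). The deposited files give each island's position and its whole-number read count, not normalised. Islands lie on a grid of 200 bp and were never closer than 800 bp. There is no count outside islands, so the total in islands is not the depth. The 9 islands on other chromosomes were left out.

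The members and gene lists were chosen with earlier results of these data known. Starts were those of GENCODE vM21 genes, and RefSeq starts were tried as an alternative. A member was named with values when its coverage separated the genotypes by at least 25 points, when its region had an unadjusted p under 0.05 (up to 8 by p), when it lacked H3K27me3 or carried H3K36me2 in at least 2 libraries of a source, when its neurosphere Ctrl H3K27me3 island was among the 3 widest or 3 narrowest, or as the example of a role group. For coverage, a promoter counted as lower when both cKO libraries lay below both Ctrl libraries, and the background is the share over all promoters whose values were not the same in all 4. Counts of islands merged over the libraries compared were summed per region, and regions called in every library were fitted with TMM and the edgeR quasi-likelihood test (edgeR 4.0.16 under R 4.3.3), with Benjamini-Hochberg adjustment over all regions and a threshold of 0.05. DESeq2 1.42.0 and limma 3.58.1 on counts per kb were alternatives. The code was tested on simulated counts. Overlaps of islands and promoters were computed with NumPy 2.4.6 (Python 3.11.15).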

Additional observations from a re-analysis of the deposited data

How the results depend on the processing

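Among 323 values of 39 results under alternatives, 39 moved with 1 library left out and 23 under another setting. For neurosphere H3K27me3 the count of member regions past the threshold was 4 with the DESeq2 Wald test, and the median log2 fold change was -0.16 with limma on counts per kb. The median for neurosphere H3K36me2 was 0.33 with limma. Between the sources, DESeq2 called 7 regions for H2AK119ub1 and 1 for H3K36me2, and limma called 26 for H3K27me3. With promoters of 1 kb on each side, 1 member lay lower in hippocampus H2AK119ub1, 2 lower in neurosphere H2AK119ub1, 0 higher in neurosphere H3K27me3 and 1 lower in neurosphere H3K36me2. At an equal covered length, 1 member lay lower in hippocampus H2AK119ub1, 1 higher in neurosphere H2AK119ub1 and 0 higher in hippocampus H3K27me3. With RefSeq start sites 1 member lay lower in hippocampus H2AK119ub1, and without both replicate 1 libraries 5 lay lower and 8 higher (both chosen after seeing the data). The cause of these differences was not tested.

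Leaving out 1 library at a time, the members lower in cKO ranged from 0 to 33 in hippocampus H2AK119ub1, 6 to 12 in neurosphere H2AK119ub1, 0 to 1 in hippocampus H3K27me3 and H3K36me2, 5 to 7 in neurosphere H3K27me3 and 2 to 3 in neurosphere H3K36me2. The members higher ranged from 0 to 13, 1 to 6, 1 to 6 (hippocampus H3K27me3), 1 to 4 (neurosphere H3K27me3) and 0 to 14 (neurosphere H3K36me2), and the median coverage difference in hippocampus H2AK119ub1 from -48.9 to 23.9 points. Member regions called in cKO against Ctrl ranged from 0 to 10 (neurosphere H2AK119ub1), 0 to 23 (neurosphere H3K27me3) and 0 to 1 (neurosphere H3K36me2). The medians ranged from -0.45 to -0.00072, -0.73 to -0.32 and 0.21 to 1.04 in the same order, and from -0.45 to 0.12 in hippocampus H3K27me3. Between the sources the calls lay between 4 and 36 for H3K27me3, and between 0 and 1 for each of the other marks. A left-out library leaves 1 sample in its group, assumed to vary like the other group.

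Replicate numbers were not shown to pair the libraries, since there are only 2 pairs per comparison and the correlations of same-numbered libraries were -0.32 to 0.33. With the replicate block the calls between the sources were 13 for H3K27me3 and 1 for H3K36me2, and 0 in every other comparison. The crossed pairing, chosen after seeing the data, gave 0 and 0 calls for neurosphere H2AK119ub1 and H3K27me3 and 2 for H2AK119ub1 between the sources.

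With 2 libraries a group and no counts outside islands, a mark below the calling level was not measured, and members at 100% coverage had no room above them.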

Other observations

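H3K36me2 and H3K27me3 were called on the same promoter bases in some neurosphere libraries. Of the member promoter bases with an H3K36me2 island, 80.9% were also in an H3K27me3 island in Ctrl replicate 1, 24.9% in Ctrl replicate 2, 80.9% in cKO replicate 1 and 0% in cKO replicate 2. Over all 9734 CpG-rich promoters the shares were 16.3, 14.2, 18.5 and 2.80%. The members' values rest on 5, 4, 18 and 2 genes, and the libraries of the marks share a replicate number only.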
